A study of Mus musculus with 6 samples.

Results

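The microglia genes described here are 10 genes known from microglia, chosen by name: Cx3cr1, Aif1, Csf1r, P2ry12, Tmem119, Itgam, C1qa, C1qb, C1qc and Trem2. They were found on the arrays as every non-control probe whose transcript accession belongs to one of them, which gave 15 probes of 39429. All 10 genes were among the 22862 genes tested, each through its brightest probe, and every one of those 10 probes was well above background on all 6 arrays. No member was therefore let through a filter by only some groups.

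Microglia are the resident macrophages of the brain. They survey the tissue through receptors for neuronal and nucleotide signals, depend on signalling through the colony-stimulating factor receptor for survival, and make the complement protein C1q, which tags synapses and debris for removal. In the hypothalamus they are known for reacting to diet and to injury of neurons that control feeding.

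Hypothalamic total RNA from male C57BL/6J mice of 16 weeks was labelled with Cy3 and hybridised to 1-colour Agilent arrays, with 2 arrays for each of 3 genotypes. Trsp-RIPKO mice carried floxed Trsp on both alleles and RIP-Cre, which is driven by a rat insulin promoter that is active in pancreatic beta cells and also in some hypothalamic neurons. Trsp-Ins1KO mice carried the same floxed alleles and Ins1-Cre, driven from the insulin gene that is used mainly in beta cells. TrspFF mice carried the floxed alleles with no Cre, so all 3 groups share the floxed alleles and no group carries a Cre without them. Trsp encodes the transfer RNA for selenocysteine, and the design text links its loss to oxidative stress. Neither driver is known for acting in microglia. The labels do not say whether an array holds 1 mouse or a pool, so each p-value reflects array-to-array spread, which may be technical.

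Levels are log2 processed signals relative to the 75th percentile of the same array, and a difference of 1 is a doubling of signal. The share of probes well above background was 68.9% to 72.0% per array, and no spot was saturated. The number of arrays, 2 in each group, limits the precision. The 4 knockout arrays lay on 1 slide with 1 scan time and both TrspFF arrays on another slide with another scan time, so slide and genotype cannot be told apart in a comparison with TrspFF. The knockout genotypes shared a slide. The deposited value table carries the names Trsp-RIPKO and Trsp-Ins1KO the other way round from the scanner files. Its column named for one knockout matched the scanner file named for the other with r of 0.99997 or more after rounding, and its own namesake with r from -0.225 to -0.202. The groups are named by their scanner files. With the table's names, the values given for the 2 knockouts would change places and every Trsp-RIPKO minus Trsp-Ins1KO difference would change sign. No probe of Trsp was used to check the labels. Trsp-Ins1KO array 2 also stood apart in choroid plexus markers: Ttr, the transthyretin gene of the choroid plexus, was at 5.64 and 5.89 on the Trsp-RIPKO arrays, at 5.39 and -0.95 on the Trsp-Ins1KO arrays and at 6.31 and 5.56 on the TrspFF arrays. In bulk tissue, fewer cells of a type and less RNA per cell cannot be told apart.

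None of the 10 microglia genes passed the threshold of 0.05 on the adjusted p in any comparison (limma, Benjamini-Hochberg over all genes tested). The smallest adjusted p of a member was 0.181 for Trsp-RIPKO minus TrspFF, 0.143 for Trsp-Ins1KO minus TrspFF and 0.263 for Trsp-RIPKO minus Trsp-Ins1KO. Over all genes, 1.66% (0.0962% higher and 1.56% lower), 1.82% (0.241% higher and 1.58% lower) and 0.0175% (all lower) passed in the same comparisons. At an unadjusted p under 0.05 the members numbered 1, 2 and 2, against 23.9%, 26% and 18.4% of all genes. The member differences ran from -0.26 to 0.29 for Trsp-RIPKO minus TrspFF, from -0.34 to 0.33 for Trsp-Ins1KO minus TrspFF and from -0.51 to 0.08 for Trsp-RIPKO minus Trsp-Ins1KO. Their medians were -0.04, 0.23 and -0.15, beside medians over all genes of -0.01, 0.02 and -0.05. The 2 TrspFF arrays serve as controls for both knockouts. Over all members the 95% intervals reached from 0.592-fold to 1.52-fold for Trsp-RIPKO over TrspFF, and from 0.622-fold to 1.88-fold for Trsp-Ins1KO over TrspFF.

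**Figure D1:**
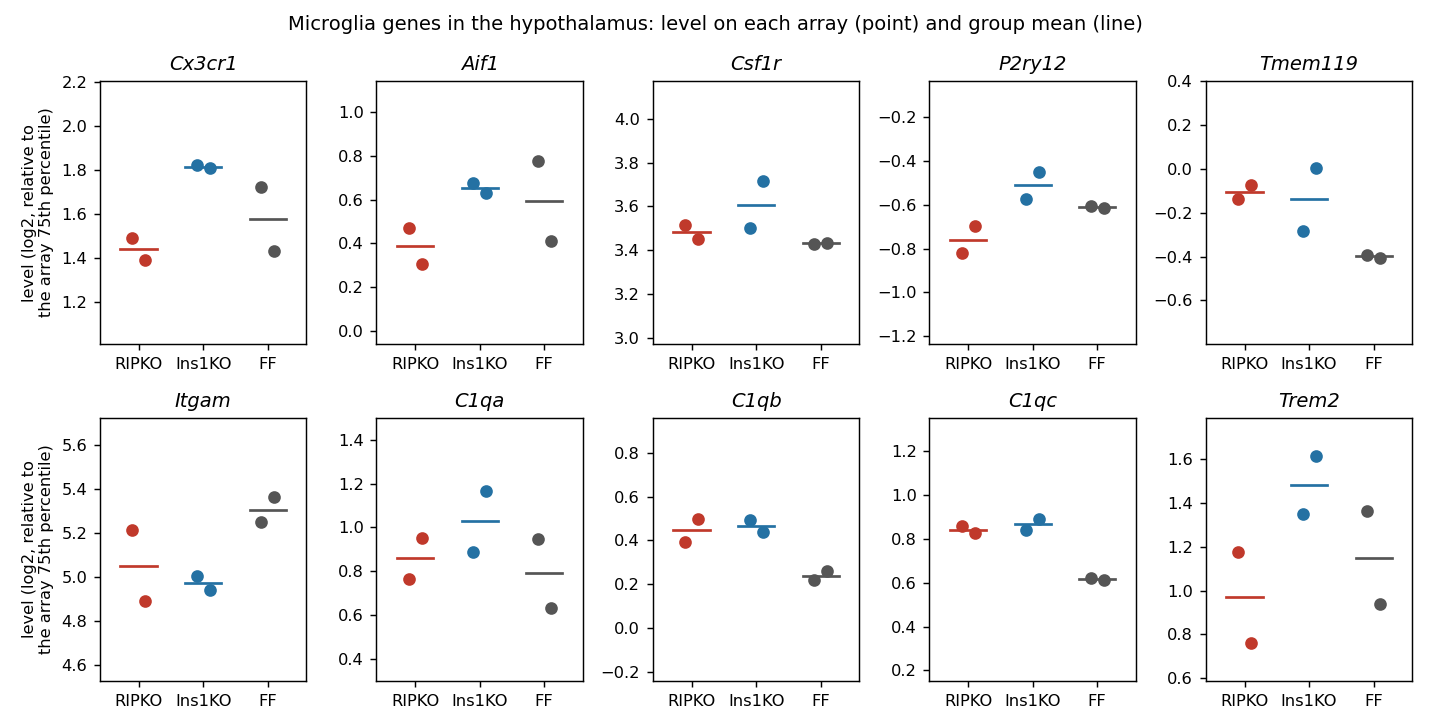
Level of each microglia gene on each array, as log2 processed signal relative to the 75th percentile of the array, in Trsp-RIPKO, Trsp-Ins1KO and TrspFF hypothalamus (2 arrays each; lines are group means, and every panel spans the same range). C1qb, C1qc, Tmem119 and, by a small margin, Csf1r lie higher on all 4 knockout arrays than on both TrspFF arrays, and Itgam lies lower.

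**Figure D2:**
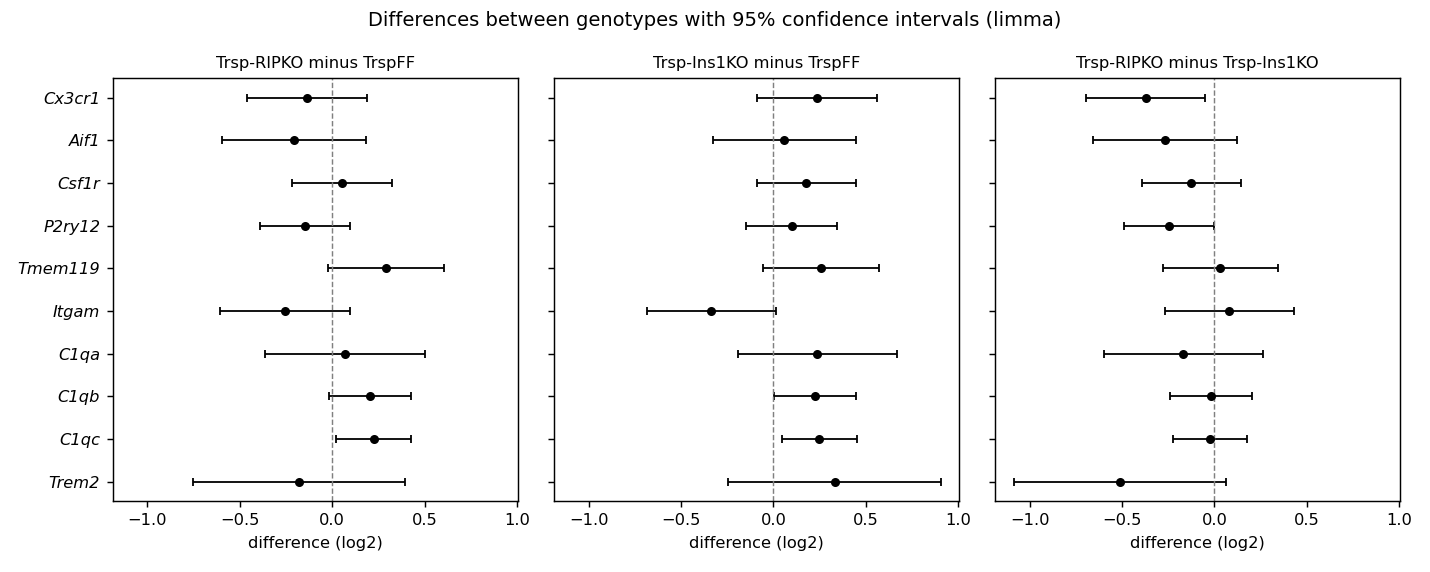
Fitted difference of each gene in log2 units with its 95% confidence interval (limma, 2 arrays per group) for Trsp-RIPKO minus TrspFF, Trsp-Ins1KO minus TrspFF and Trsp-RIPKO minus Trsp-Ins1KO. Most intervals cross 0, and none of the 10 genes passed the adjusted threshold in any panel.

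Among the receptors, Cx3cr1, Trem2 and P2ry12 each had both Trsp-RIPKO arrays below both Trsp-Ins1KO arrays. Cx3cr1, the receptor for the neuronal chemokine fractalkine, was at 1.49 and 1.39 on the Trsp-RIPKO arrays, at 1.82 and 1.81 on the Trsp-Ins1KO arrays and at 1.72 and 1.43 on the TrspFF arrays. TrspFF array 1 lay near the Trsp-Ins1KO arrays and TrspFF array 2 within the range of the Trsp-RIPKO arrays. The difference was -0.14 (SE 0.12) for Trsp-RIPKO minus TrspFF, 0.24 (SE 0.12) for Trsp-Ins1KO minus TrspFF and -0.37 (SE 0.12, 95% interval -0.70 to -0.05) for Trsp-RIPKO minus Trsp-Ins1KO, with adjusted p of 0.532, 0.292 and 0.263 (limma). A second Cx3cr1 probe, A_52_P99810, gave 0.13, 0.14 and -0.01 in those comparisons, so the gap between the knockouts was seen with 1 of the 2 probes.

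Trem2, the lipid-sensing receptor that signals through the adaptor Tyrobp, was at 1.18 and 0.76 on the Trsp-RIPKO arrays, at 1.35 and 1.61 on the Trsp-Ins1KO arrays and at 1.36 and 0.94 on the TrspFF arrays. Each Trsp-RIPKO array lay below both Trsp-Ins1KO arrays, with TrspFF array 1 in the range of the Trsp-Ins1KO arrays and TrspFF array 2 in that of the Trsp-RIPKO arrays. Trem2 had the widest spread between arrays of a group among the members, and its difference was -0.18 (SE 0.22) for Trsp-RIPKO minus TrspFF, 0.33 (SE 0.22) for Trsp-Ins1KO minus TrspFF and -0.51 (SE 0.22, 95% interval -1.09 to 0.06) for Trsp-RIPKO minus Trsp-Ins1KO. The adjusted p were 0.64, 0.385 and 0.286 (limma). Over the 6 arrays the levels of Cx3cr1 and Trem2 had a Pearson correlation of 0.916, a description of arrays that also share slides and group differences. The partner Tyrobp was at 1.42 on both Trsp-RIPKO arrays, at 1.31 and 1.60 on the Trsp-Ins1KO arrays and at 1.26 and 1.28 on the TrspFF arrays.

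The sequences upstream of Cx3cr1 and Trem2 are shown because their levels followed each other most closely of all member pairs. They are the 250 bases before the annotated start, from RefSeq on GRCm38.p6 in the direction of transcription, and capitals mark GAGGAA or its reverse complement TTCCTC, the core that the myeloid factor PU.1 is known to bind.
Cx3cr1 (chr9:120068297-120068546, minus strand): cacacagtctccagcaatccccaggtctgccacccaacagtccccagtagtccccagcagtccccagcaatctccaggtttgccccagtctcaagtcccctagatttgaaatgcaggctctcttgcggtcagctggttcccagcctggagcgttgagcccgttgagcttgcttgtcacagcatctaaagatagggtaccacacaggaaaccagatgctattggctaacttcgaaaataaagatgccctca
Trem2 (chr17:48346151-48346400, plus strand): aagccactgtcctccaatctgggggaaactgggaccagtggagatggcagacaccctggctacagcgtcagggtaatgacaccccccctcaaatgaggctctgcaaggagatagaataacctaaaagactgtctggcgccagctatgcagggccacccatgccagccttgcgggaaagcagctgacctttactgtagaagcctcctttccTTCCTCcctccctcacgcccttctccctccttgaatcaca
The Trem2 window holds 1 such match, 40 bases before the start, and the Cx3cr1 window holds none. Windows were at hand for 7 of the 10 members, and 5 of the 7 hold the core on either strand, against 23.25% of all 32851 windows. None of the 7 holds GGAA and GAAA spaced by 2 bases, the composite element of PU.1 with interferon regulatory factors, which 2.301% of all windows hold on either strand. A match is a description of these letters and not a bound site. The PU.1 gene itself, Spi1, was well above background on no array.

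P2ry12, the receptor through which resting microglia sense ADP, was at -0.82 and -0.70 on the Trsp-RIPKO arrays, at -0.57 and -0.45 on the Trsp-Ins1KO arrays and at -0.61 and -0.62 on the TrspFF arrays. The groups did not overlap in any comparison, with Trsp-RIPKO lowest and Trsp-Ins1KO highest. The differences were small: -0.15 (SE 0.09) for Trsp-RIPKO minus TrspFF, 0.10 (SE 0.09) for Trsp-Ins1KO minus TrspFF and -0.25 (SE 0.09) for Trsp-RIPKO minus Trsp-Ins1KO, with adjusted p of 0.387, 0.533 and 0.271 (limma). P2ry13, a related nucleotide receptor, was at -2.23 and -2.10 on the Trsp-RIPKO arrays, at -2.13 and -2.06 on the Trsp-Ins1KO arrays and at -2.51 and -2.55 on the TrspFF arrays, which gave adjusted p of 0.114 for Trsp-RIPKO and 0.0857 for Trsp-Ins1KO against TrspFF (limma).

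Csf1r, the receptor for Csf1 and Il34 that keeps microglia alive, was at 3.52 and 3.45 on the Trsp-RIPKO arrays, at 3.50 and 3.72 on the Trsp-Ins1KO arrays and at 3.43 on both TrspFF arrays with its brightest probe. The 2 TrspFF arrays lay just below the knockout arrays, by less than the gap between the 2 Trsp-Ins1KO arrays. The difference was 0.05 (SE 0.10) for Trsp-RIPKO and 0.18 (SE 0.10) for Trsp-Ins1KO against TrspFF. The other Csf1r probes ran the other way. A_55_P2025073 was at -1.72 and -1.73 on the Trsp-RIPKO arrays, at -1.59 and -1.63 on the Trsp-Ins1KO arrays and at -0.99 and -1.13 on the TrspFF arrays. Its difference was -0.66 (SE 0.09) for Trsp-RIPKO and -0.55 (SE 0.09) for Trsp-Ins1KO against TrspFF, with adjusted p of 0.0503 and 0.0636 over all 28064 probes (limma). A_52_P602091 gave -0.17 and -0.18. The 3 probes carry the same transcript accession, and the level of Csf1r therefore has no single direction in these data.

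Itgam, which encodes CD11b, the alpha chain of a complement receptor, was the member lower on the knockout arrays. Its brightest probe was at 5.21 and 4.89 on the Trsp-RIPKO arrays, at 5.003 and 4.94 on the Trsp-Ins1KO arrays and at 5.25 and 5.36 on the TrspFF arrays. Neither knockout overlapped TrspFF, and Trsp-RIPKO array 1 lay just under the lower TrspFF array. The difference was -0.26 (SE 0.13, 95% interval -0.61 to 0.09) for Trsp-RIPKO and -0.34 (SE 0.13, 95% interval -0.68 to 0.01) for Trsp-Ins1KO, with adjusted p of 0.315 and 0.204 (limma). The other Itgam probes gave the same sign, at far lower levels. A_55_P1977929 lay between -4.12 and -3.47 and differed by -0.42 and -0.49. A_55_P1977926, well above background on 5 of 6 arrays, lay between -6.26 and -4.76 and differed by -1.22 and -0.91. Their adjusted p ran from 0.0982 to 0.19 (limma, over all probes). Which of these probes follows Itgam best was not tested. Itgb2, whose product pairs with CD11b, was at -3.01 and -2.86 on the Trsp-RIPKO arrays, at -3.07 and -2.86 on the Trsp-Ins1KO arrays and at -3.00 and -3.09 on the TrspFF arrays, and the groups overlapped.

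**Figure D3:**
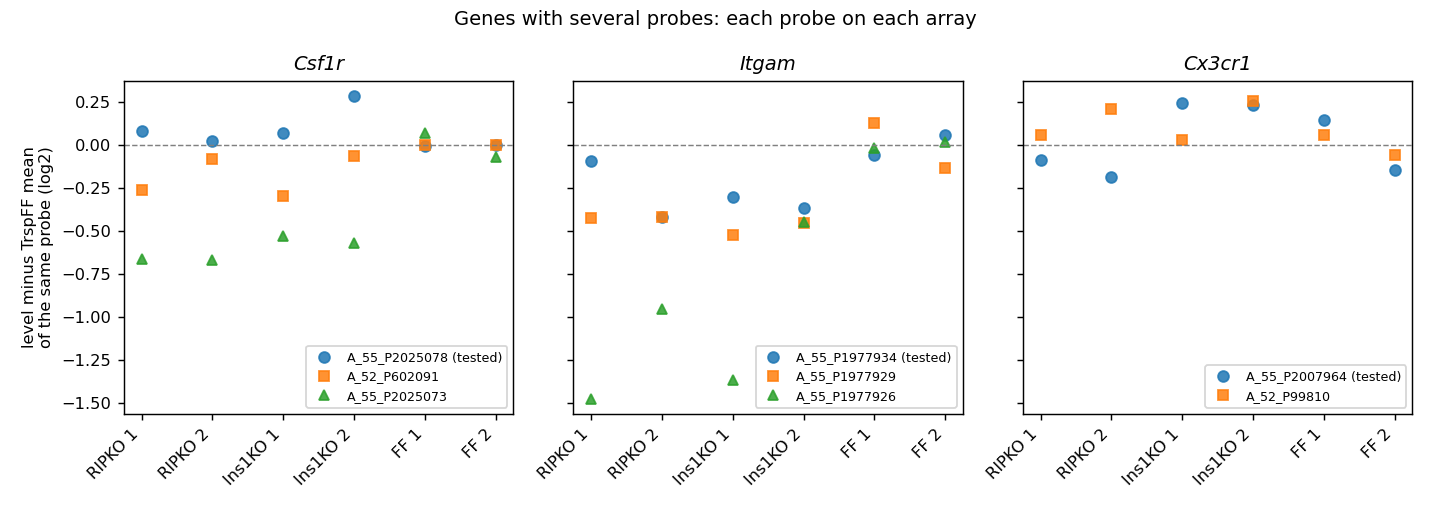
Level of each probe of Csf1r, Itgam and Cx3cr1 on each array minus the TrspFF mean of the same probe, in log2 units; a symbol is 1 probe on 1 array. Probe A_55_P2025073 of Csf1r is lower on all 4 knockout arrays while the tested probe is slightly higher, and all 3 Itgam probes are lower on the knockout arrays.

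Aif1, which encodes the cytoskeletal protein IBA1 used to stain microglia, was at 0.47 and 0.30 on the Trsp-RIPKO arrays, at 0.67 and 0.63 on the Trsp-Ins1KO arrays and at 0.78 and 0.41 on the TrspFF arrays. The TrspFF arrays enclosed both Trsp-Ins1KO arrays. The difference was -0.21 (SE 0.15) for Trsp-RIPKO minus TrspFF and 0.06 (SE 0.15) for Trsp-Ins1KO minus TrspFF, and in both the groups overlapped. For Trsp-RIPKO minus Trsp-Ins1KO it was -0.27 (SE 0.15), and there the groups did not overlap. The adjusted p were 0.437, 0.821 and 0.362 (limma). Tmem119, a membrane protein that marks resident microglia, was at -0.14 and -0.08 on the Trsp-RIPKO arrays, at -0.28 and 0.01 on the Trsp-Ins1KO arrays and at -0.39 and -0.40 on the TrspFF arrays. All 4 knockout arrays lay above both TrspFF arrays, with differences of 0.29 (SE 0.12) and 0.26 (SE 0.12) and adjusted p of 0.23 and 0.25 (limma).

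C1qa, C1qb and C1qc encode the 3 chains of C1q and are neighbours in the mouse genome. C1qc was at 0.86 and 0.83 on the Trsp-RIPKO arrays, at 0.84 and 0.89 on the Trsp-Ins1KO arrays and at 0.62 and 0.61 on the TrspFF arrays. The gap between the knockout and TrspFF arrays was several times the spread within any group, and the knockouts did not differ from each other beyond it. The difference was 0.22 (SE 0.08, 95% interval 0.02 to 0.43) for Trsp-RIPKO and 0.25 (SE 0.08, 95% interval 0.05 to 0.45) for Trsp-Ins1KO, with unadjusted p of 0.0354 and 0.0252 and adjusted p of 0.181 and 0.143 (limma). These are the smallest p of any member against TrspFF, and at the unadjusted threshold 23.9% and 26% of all genes pass. The C1qc probe is printed as 10 spots scattered over the array, of which 8 were unflagged on every array. On 8 of those 8 spots all 4 knockout arrays were above both TrspFF arrays, by 0.194 to 0.324 in the means. Spots of an array share its RNA and are not replicates of a genotype.

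**Figure D4:**
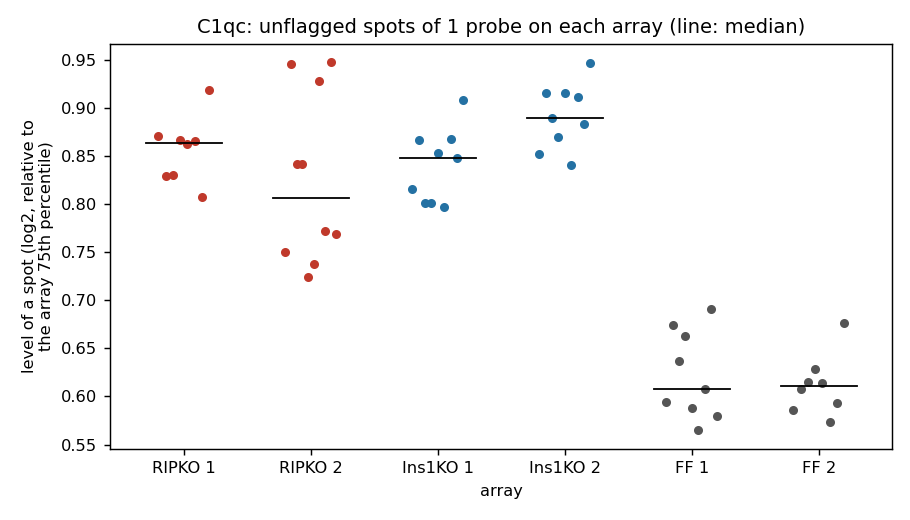
Level of each unflagged C1qc spot on each array, as log2 processed signal relative to the 75th percentile of the array; points are spots of 1 probe and lines are medians. Spots on the knockout arrays lie between 0.725 and 0.947, and spots on the TrspFF arrays between 0.565 and 0.690.

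C1qb was at 0.39 and 0.50 on the Trsp-RIPKO arrays, at 0.50 and 0.44 on the Trsp-Ins1KO arrays and at 0.22 and 0.26 on the TrspFF arrays, and again no knockout array overlapped TrspFF. The difference was 0.21 (SE 0.09) for Trsp-RIPKO and 0.23 (SE 0.09) for Trsp-Ins1KO, with adjusted p of 0.23 and 0.186 (limma). C1qa was at 0.77 and 0.95 on the Trsp-RIPKO arrays, at 0.89 and 1.17 on the Trsp-Ins1KO arrays and at 0.95 and 0.63 on the TrspFF arrays. C1qa overlapped between groups, with differences of 0.07 (SE 0.17) and 0.24 (SE 0.17) against TrspFF.

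The scanner software corrects each spot for a trend across the array surface. For 7 of the 10 members the factor on the knockout slide did not overlap that on the TrspFF slide. It was higher for C1qb and Tmem119 and lower for Cx3cr1, Aif1, Itgam, C1qa and Trem2. The share of all probes without overlap was not computed, so this count cannot be read as particular to the members. The log2 factor at the C1qb spot averaged 0.416 on the knockout arrays and 0.128 on the TrspFF arrays, a gap of 0.288 that 1.57% of 25962 probes reached. At the Tmem119 spot it averaged 0.300 on the knockout arrays and 0.0928 on the TrspFF arrays, a gap of 0.207 that 5.64% of probes reached. With the background-subtracted signal before this correction, an alternative chosen after seeing the data, the C1qb difference was -0.08 for Trsp-RIPKO and -0.05 for Trsp-Ins1KO, and the Tmem119 difference was 0.08 and 0.07. The C1qc factor, averaged over its spots, differed by -0.00395 between knockout and TrspFF arrays, and the C1qc difference without the correction was 0.23 and 0.27. At the Aif1 spot the factor averaged 0.0804 on the knockout arrays and 0.248 on the TrspFF arrays, and without the correction the Aif1 difference was -0.05 for Trsp-RIPKO and 0.25 for Trsp-Ins1KO. The same signal gave Cx3cr1 differences of -0.06 and 0.34, Trem2 differences of -0.08 and 0.46, Itgam differences of -0.20 and -0.26 and C1qa differences of 0.18 and 0.35.

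**Figure D5:**
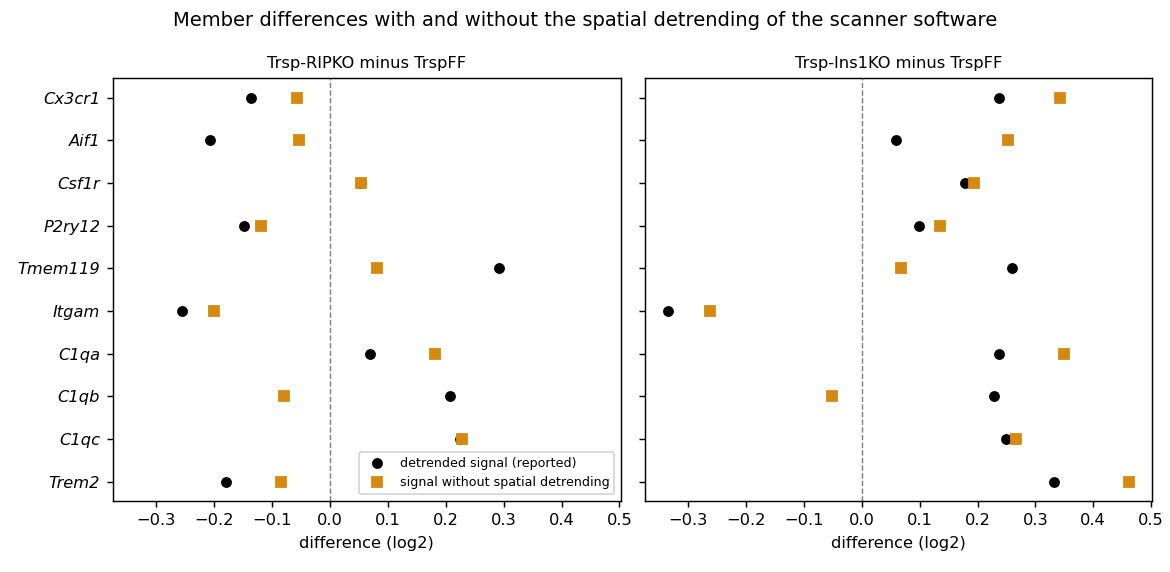
Difference of each gene against TrspFF in log2 units, for Trsp-RIPKO and Trsp-Ins1KO, from the spatially detrended signal (circles) and from the signal before that correction (squares). C1qb changes sign in both panels and Tmem119 moves towards 0, Cx3cr1, Aif1, C1qa and Trem2 move to higher values, and C1qc stays between 0.22 and 0.27.

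The sequences upstream of C1qb and C1qc are shown because their levels followed each other over the arrays (Pearson correlation 0.889, 6 arrays, a description that includes the C1qb correction above). Source, direction and capitals are as for Cx3cr1 and Trem2.
C1qb (chr4:136886201-136886450, minus strand): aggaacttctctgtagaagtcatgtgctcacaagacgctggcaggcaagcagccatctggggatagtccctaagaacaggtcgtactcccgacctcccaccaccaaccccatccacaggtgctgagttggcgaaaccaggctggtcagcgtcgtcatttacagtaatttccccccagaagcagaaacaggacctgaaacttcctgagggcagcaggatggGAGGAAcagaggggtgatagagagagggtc
C1qc (chr4:136892915-136893164, minus strand): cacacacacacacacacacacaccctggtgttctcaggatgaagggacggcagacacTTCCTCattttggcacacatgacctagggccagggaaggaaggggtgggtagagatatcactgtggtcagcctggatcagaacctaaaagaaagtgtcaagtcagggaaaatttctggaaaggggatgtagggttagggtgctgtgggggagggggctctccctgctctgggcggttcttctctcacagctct
Each window holds 1 match to the core, 30 bases before the start in C1qb and 193 bases before it in C1qc.

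Read as groups that do not overlap, 4 members were higher and 2 lower in Trsp-RIPKO than in TrspFF, against 28% and 30.2% of all genes. In Trsp-Ins1KO, 6 members were higher and 1 lower than in TrspFF, against 31.7% and 26.4% of all genes. Between the knockouts, which shared a slide, no member was higher and 4 were lower in Trsp-RIPKO than in Trsp-Ins1KO (Cx3cr1, Aif1, P2ry12 and Trem2), against 22.9% and 35.8% of all genes. The mean of the members, each centred on its own mean, was -0.026 and -0.088 on the Trsp-RIPKO arrays, 0.053 and 0.158 on the Trsp-Ins1KO arrays and 0.015 and -0.113 on the TrspFF arrays. Trsp-Ins1KO array 2, the array low in choroid plexus markers, was the highest of the 6. Without it the median member difference for Trsp-Ins1KO minus TrspFF was 0.11, and for Trsp-RIPKO minus Trsp-Ins1KO -0.04.

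Genes that act beside the members gave 1 call in 13 lists. Of 15 other microglia genes, all were tested and none passed in any comparison. Against TrspFF, 5 of the 15 were higher in Trsp-RIPKO (median difference -0.16) and 9 in Trsp-Ins1KO (median difference 0.06). Sall1 differed by -0.23 for Trsp-RIPKO minus TrspFF, and Entpd1 by -0.28 for Trsp-Ins1KO minus TrspFF. Fcrls, an Fc receptor-like gene of microglia, was at -0.99 and -0.79 on the Trsp-RIPKO arrays, at -0.83 and -0.77 on the Trsp-Ins1KO arrays and at -1.14 and -1.15 on the TrspFF arrays. Olfml3, a secreted microglia product, was at 1.01 and 0.82 on the Trsp-RIPKO arrays, at 0.89 and 1.05 on the Trsp-Ins1KO arrays and at 1.22 and 1.62 on the TrspFF arrays. Of the myeloid partners and regulators, 17 of 19 were tested and none passed. Fcer1g, the signalling chain of Fc receptors, was at 0.67 on both Trsp-RIPKO arrays, at 0.51 and 0.72 on the Trsp-Ins1KO arrays and at 0.07 and 0.15 on the TrspFF arrays, with adjusted p of 0.0796 and 0.0852 against TrspFF (limma).

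Of the genes for ligands of the member receptors, 8 of 9 were tested and none passed. Cx3cl1, which encodes fractalkine, was at 4.76 and 4.73 on the Trsp-RIPKO arrays, at 4.60 and 4.47 on the Trsp-Ins1KO arrays and at 4.44 and 4.61 on the TrspFF arrays. Il34, a ligand of Csf1r made by neurons, was at 0.63 on both Trsp-RIPKO arrays, at 0.54 and 0.39 on the Trsp-Ins1KO arrays and at 0.37 and 0.21 on the TrspFF arrays (adjusted p of 0.159 for Trsp-RIPKO minus TrspFF, limma).

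Of the inflammatory mediators, 13 of 19 were tested. Against TrspFF, 6 of these 13 were higher in Trsp-RIPKO and 4 in Trsp-Ins1KO. For Trsp-RIPKO minus TrspFF, Cxcl10 differed by 1.08 and Ccl5 by 0.51 (adjusted p of 0.102 and 0.115, limma). Nlrp3, the inflammasome sensor, was at -4.64 and -4.59 on the Trsp-RIPKO arrays, at -4.999 and -5.11 on the Trsp-Ins1KO arrays and at -4.23 and -4.13 on the TrspFF arrays. It was the list gene that passed, and fell by 0.87 in Trsp-Ins1KO against TrspFF (SE 0.09, adjusted p = 0.0312, limma), with -0.43 and adjusted p = 0.0903 for Trsp-RIPKO. It passed in 8 of 18 alternatives, and with any 1 of the 6 arrays left out it did not, with adjusted p from 0.0518 (without TrspFF array 1) to 0.145 (without Trsp-Ins1KO array 2). With normexp background correction the difference was -0.40 (adjusted p = 0.109, limma). Il1a, Il1b, Il6, Tnf and Il10 were well above background on no array. Of the genes that microglia raise around disease lesions, 16 of 18 were tested and none passed. Of these 16, 6 were higher in Trsp-RIPKO than in TrspFF, and 8 were higher in Trsp-Ins1KO. Gpnmb, well above background on 5 arrays, differed by -0.76 for Trsp-Ins1KO minus TrspFF (adjusted p = 0.0717, limma). Axl differed by 0.23 for Trsp-RIPKO and 0.26 for Trsp-Ins1KO against TrspFF. Ccl6, a chemokine of that list, was at -2.92 and -2.91 on the Trsp-RIPKO arrays, at -3.90 and -3.67 on the Trsp-Ins1KO arrays and at -3.29 and -3.07 on the TrspFF arrays.

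Markers of other cells were read beside the members, and their part in the member differences was not tested. Of the border macrophage markers 10 of 12 were tested and of the blood cell markers 8 of 16, with no call. Cd163, Ccr2, Cd3g, Cd79a and Ms4a1 were well above background on no array. Others of these lists, among them F13a1, Stab1, Folr2, S100a8, S100a9, Cd3e and Nkg7, were well above background on all 6 arrays. The mean level of the 10 endothelial markers was -0.21 and -0.19 on the Trsp-RIPKO arrays, -0.96 and -0.80 on the Trsp-Ins1KO arrays and -0.64 and -0.31 on the TrspFF arrays. The 10 neuron, 10 astrocyte and 10 oligodendrocyte markers and the 13 choroid plexus markers gave no call in any comparison. The astrocyte markers averaged 2.96 and 2.93 on the Trsp-RIPKO arrays, 3.17 and 3.23 on Trsp-Ins1KO and 3.13 and 3.03 on TrspFF. For Trsp-RIPKO minus Trsp-Ins1KO their median difference was -0.23, beside -0.15 for the members. It was -0.03 for the neuron, 0.28 for the oligodendrocyte and 1.88 for the choroid plexus markers.

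The 8 genes whose levels followed the centred mean of the members most closely, of 5841 genes screened, were Tmem255a, Adcy7, Sdsl, Lhx5, Ankrd2, Gstz1, Cdk14 and Lgr5. Their Pearson correlations over the 6 arrays ran from 0.985 to 0.996, which the choice of the best of so many genes fixes in part. Tmem255a, the closest, was at 2.08 and 1.94 on the Trsp-RIPKO arrays, at 2.34 and 2.56 on the Trsp-Ins1KO arrays and at 2.18 and 1.86 on the TrspFF arrays.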

How the data were processed

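RNA of 6 hypothalamus samples was read on 1-colour Agilent arrays, 2 for each genotype. Per the file headers, the deposited intensity values are gProcessedSignal from Agilent Feature Extraction 10.7.3.1, background-subtracted and spatially detrended, on an array annotated to mm9. The authors' deposited value table holds log2 values centred on each probe's median over the arrays, and was used as an alternative with its columns matched to scanner files by correlation. From the intensities, flagged spots were left out, spots of a probe were averaged, and log2 signal minus the 75th percentile of the array was taken. Accessions of 26055 probes were named through the RefSeq table of GRCm38.p6. Kept probes had at least 1 unflagged spot on every array, and 118 probes without one were dropped. In 1 group or more, kept probes were also well above background on both of its arrays (28064 probes). Each gene was tested through its brightest kept probe. All 6 arrays entered 1 limma fit (limma 3.58.1, R 4.3.3; lmFit and eBayes, 4.87 total degrees of freedom, Benjamini-Hochberg over 22862 genes at 0.05), which was tested on simulated data. The members and gene lists were chosen with earlier results of these data known. Named genes were all members with every probe, and from each other list the genes past the threshold or otherwise among the 4 with the smallest p. Tyrobp, Itgb2, Ttr and the genes given as well above background on no array were named outside this rule, after their values were seen. The complement genes C2, C3 and Cd59a fall under the rule for Trsp-RIPKO minus Trsp-Ins1KO. They were set apart from the rest of their list after their values were seen. The alternatives were other background corrections, scalings, filters, probe rules, variance models and sample sets, each array left out, and a replicate block. The 2 groups of a comparison share replicate numbers, but these did not pair the arrays (correlations of replicate differences -0.02, -0.03 and 0.09). No sequence of a gene without a window was looked for elsewhere.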

Additional observations from a re-analysis of the deposited data

How the results depend on the processing

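No member passed the threshold under any of the 18 alternatives run in any comparison, through its brightest probe or the mean of its probes, and the smallest adjusted p of a member over them was 0.0887 for Trsp-RIPKO minus TrspFF, 0.0868 for Trsp-Ins1KO minus TrspFF and 0.139 for Trsp-RIPKO minus Trsp-Ins1KO (limma). With every probe tested, the Csf1r probe A_55_P2025073 came to 0.0503 and 0.0636 against TrspFF. Of 180 member values per comparison, 172, 176 and 172 kept their direction. Many of these could not change it. Another filter, another variance model, the replicate block or a change to the third group alone leaves a member's fitted difference as it was. The number of genes passing for Trsp-RIPKO minus TrspFF (379) became 224 with median scaling, 0 with no filter, 784 with a trended robust variance, 0 in a fit of the 2 groups alone and 0 with the replicate block, and lay between 0 and 495 with 1 array left out. For Trsp-Ins1KO minus TrspFF (416) it became 25 with no filter, 1240 with the trended robust variance, 0 with the 2 groups alone and 0 with the replicate block, and lay between 0 and 511 with 1 array left out. For Trsp-RIPKO minus Trsp-Ins1KO (4) it became 1 with normexp, 1 with no filter, 2 for probes well above background on all arrays, 1 with the trended robust variance, 319 with the 2 groups alone and 0 with the replicate block, and lay between 0 and 319 with 1 array left out. Replicate numbers did not pair the arrays, so the block is given here only. With normexp on the median spot signal, C1qb was -0.075, -0.093 and 0.018 in the 3 comparisons, and without spatial detrending -0.079 and -0.051 against TrspFF. With the mean of a gene's probes, Csf1r was -0.26 and -0.18 against TrspFF and Itgam -0.053 between the knockouts. Median scaling moved the median of all genes to 0.09 for Trsp-RIPKO minus TrspFF and 0.11 for Trsp-Ins1KO minus TrspFF, and that of the members to 0.067 and 0.32, and C1qb between the knockouts was 0.0014.

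With 1 array left out the median member difference lay between -0.12 and 0.041 for Trsp-RIPKO minus TrspFF, between 0.11 and 0.25 for Trsp-Ins1KO minus TrspFF and between -0.24 and -0.038 for Trsp-RIPKO minus Trsp-Ins1KO. In these fits some members changed sign. For Trsp-RIPKO minus TrspFF, Cx3cr1 lay between -0.28 (without TrspFF array 2) and 0.011 (without TrspFF array 1), Trem2 between -0.39 and 0.032 and C1qa between -0.089 and 0.23. For Trsp-Ins1KO minus TrspFF, Aif1 lay between -0.12 (without TrspFF array 2) and 0.24 (without TrspFF array 1). Between the knockouts, Tmem119 lay between -0.11 and 0.18, Itgam between -0.082 and 0.24, C1qb between -0.074 and 0.032 and C1qc between -0.0497 and 0.0022. The cause was not tested in these cases. A group left with 1 array is assumed to vary like the others. Slide as a block was not run, since each slide holds the knockouts or TrspFF alone. With 2 arrays a group, the 95% intervals of the members reach from -0.76 to 0.91 against TrspFF.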

Other observations

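The complement genes C2, C3 and Cd59a were lower on both Trsp-RIPKO arrays than on both Trsp-Ins1KO arrays, while the 2 TrspFF arrays were split. C2, the protease cleaved by the C1 complex, was at -1.21 and -0.94 on the Trsp-RIPKO arrays, at 1.26 and 1.11 on the Trsp-Ins1KO arrays and at 1.13 and -1.04 on the TrspFF arrays. C3, the central component of the cascade, was at -1.51 and -1.35 on the Trsp-RIPKO arrays, at 0.54 and -0.32 on the Trsp-Ins1KO arrays and at 0.44 and -1.54 on the TrspFF arrays. Cd59a, an inhibitor of the terminal complex, was at 0.09 and 0.05 on the Trsp-RIPKO arrays, at 1.14 and 1.27 on the Trsp-Ins1KO arrays and at 1.16 and -0.14 on the TrspFF arrays. For all 3 genes TrspFF array 1 lay with or near the Trsp-Ins1KO arrays and TrspFF array 2 with or near the Trsp-RIPKO arrays. These genes were picked out after their values were seen. Of the complement list, 12 of 15 genes were tested and none passed in any comparison (limma, with 1, 1 and 2 at an unadjusted p under 0.05).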
